A study of Mus musculus with 10 samples.

Results

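The 80 genes described here encode the protein subunits of the cytosolic ribosome. They were all rows of the 10 library tables whose symbol is Rpl or Rps followed by digits and at most 1 small letter, together with Rplp0, Rplp1, Rplp2 and Rpsa, out of 22923 gene symbols. By role, 42 belong to the large (60S) subunit, 3 to the P-stalk of that subunit, 31 to the small (40S) subunit and 4 are paralogs (Rpl3l, Rpl10l, Rpl39l and Rps27l). The 76 genes other than the paralogs are called core members below. Rpl34 shared a row with a pseudogene and did not meet the rule, and it is not counted. The ribosomal kinases (Rps6k) are also out.

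A eukaryotic ribosome holds nearly every subunit as a single copy, so a cell makes its ribosomal proteins in matched amounts, and growing cells spend a large share of their transcripts on them. The small subunit reads the messenger RNA, the large subunit forms the peptide bond, and the P-stalk recruits the elongation factors. Messenger RNAs of these genes typically begin with a run of pyrimidines, the 5′ terminal oligopyrimidine (TOP) motif, through which mTOR signalling controls their translation. Lymphocyte precursors alternate between phases of rapid division and quiescent phases in which receptor genes are rearranged, and mature granulocytes no longer divide.

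RNA was sequenced from 5 sorted populations of C57bl/6 mice aged 4 weeks: cycling and quiescent CD4+CD8+ thymocytes, large and small pre-B cells, and mature granulocytes. Control mice were Dyrk1a flox/flox, Mx1-Cre-, so they carried the floxed Dyrk1a alleles and lacked the Cre transgene. The other mice were Dyrk1a -/-, Mx1-Cre+ (CKO), in which Cre is driven by the interferon-inducible Mx1 promoter and is therefore not limited to lymphocytes. DYRK1A is a protein kinase that acts on cell-cycle regulators. Each library came from a pool of 2 mice and each population had 1 library per genotype, so 10 libraries were available, the spread between animals was not measured, and the 5 populations of a genotype came from the same pool. Values are FPKM, fragments scaled by transcript length and by library size, a unit inferred from the files and from the tools named by the submitters, and the depth of the libraries is unknown. Where values stand in pairs, the control library comes first and the CKO-labelled library next. A level can be compared between genes because it is per length, as far as the transcript models used by the authors hold.

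Some features of the libraries bear on the genotype comparisons. Dyrk1a itself stood at 31.2 to 37.4 FPKM in the 5 control libraries and at 34.4 to 44.7 FPKM in the 5 CKO-labelled libraries, so the level of the targeted gene was not lower in the latter, and which part of the gene was deleted was not examined. The Y-linked gene Ddx3y was at most 0.039 FPKM in the control libraries and 7.26 to 16.7 FPKM in the CKO-labelled libraries, while Xist was 8.09 to 65.2 FPKM over all 10, so Y-linked transcripts moved with genotype, and the sex of the pooled mice and their genotype cannot be told apart. Thymocyte, pre-B and granulocyte marker sums were highest in the populations labelled so. In control and CKO-labelled granulocytes, however, S100a8 was listed at 0 and 246142 FPKM, Ngp at 0 and 39818 FPKM, and S100a9 at 0 in both. Summed over 6 proliferation markers, the quiescent thymocyte libraries reached 8.17 (control) and 169 FPKM (CKO-labelled), and the small pre-B libraries 185 and 405 FPKM. The natural killer and innate markers, 6 genes, summed to 12.8 and 110 FPKM in control and CKO-labelled small pre-B cells. The monocyte markers, 4 genes, summed to 9.21 and 83.9 FPKM there, mostly through Mpeg1 (4.27 and 77.6 FPKM), while Csf1r and Ms4a6c were not higher. Of the plasmacytoid dendritic markers, Siglech (2.25 and 41.5 FPKM), Bst2 (21.1 and 134 FPKM) and Irf8 (92.5 and 212 FPKM) were higher in the CKO-labelled small pre-B library. Ly6d was lower there (939 and 468 FPKM). Early granulocyte markers (4 genes, Mpo among them) summed to 894 and 374 FPKM in the large pre-B libraries and to 1404 and 568 FPKM in the granulocyte libraries, and the proliferation sum in granulocytes was 448 and 483 FPKM. The part of these differences in the ribosomal protein results was not tested.

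Promoter sequences were read from RefSeq for 60 of the 80 members (GRCm38.p6) and are shown for some of the members on which the results turn. They run from 50 bases before to 30 bases after the transcript start of the RefSeq promoter table. The longest run of C and T is in capitals. Where the longest runs tie in length, as in Rpsa and Rpl12, only the first is in capitals. Rps27 and Rps9 are shown because they did not follow the other members between cell states and in granulocytes. Rpl36a, Rps12, Rps2 and Rpsa were among those that differed most between states or genotypes, and others such as Rpl14 are not shown. Rpl12 was the lowest in granulocytes relative to lymphoid cells, and Rpl7a carries the longest run found (21 bases).
Rps27: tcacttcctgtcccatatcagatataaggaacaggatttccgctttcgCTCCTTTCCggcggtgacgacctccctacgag
Rps9: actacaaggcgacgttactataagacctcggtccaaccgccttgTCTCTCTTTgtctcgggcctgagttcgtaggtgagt
Rpl36a: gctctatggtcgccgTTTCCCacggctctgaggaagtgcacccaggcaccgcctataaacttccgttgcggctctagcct
Rps12: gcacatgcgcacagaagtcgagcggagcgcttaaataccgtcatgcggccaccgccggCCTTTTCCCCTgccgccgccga
Rps2: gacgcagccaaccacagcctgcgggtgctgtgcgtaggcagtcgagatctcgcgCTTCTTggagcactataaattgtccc
Rpsa: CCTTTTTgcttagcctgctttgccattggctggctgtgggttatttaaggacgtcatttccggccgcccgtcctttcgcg
Rpl12: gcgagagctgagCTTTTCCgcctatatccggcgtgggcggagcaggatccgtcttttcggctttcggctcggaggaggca
Rpl7a: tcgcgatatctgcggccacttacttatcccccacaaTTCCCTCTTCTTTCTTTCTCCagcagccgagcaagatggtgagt
The windows lie at chr3:90213619-90213698 (minus strand), chr7:3703991-3704070 (plus), chrX:134585604-134585683 (plus), chr10:23787180-23787259 (minus), chr17:24720013-24720092 (plus), chr9:120127716-120127795 (plus), chr2:32961662-32961741 (plus) and chr2:26910757-26910836 (plus). For Rps2, Rps9, Rps12 and Rpl7a that transcript start lies inside the RefSeq gene span, which covers all transcripts of the gene. In these windows, the longest run of C and T had a median of 9 bases over the 60 members and 6 bases over 27018 genes, and it reached 8 bases in 38 members (63.33%) against 33.58% of all genes. The pyrimidine letters CTCTTT stood on the sense strand in 12 members (20%) and in 3.82% of all genes, and on the other strand in 1 member (1.67%) and 3.56% of genes. CTTTCC, which overlaps CTCTTT in the string CTCTTTCC, was found on the sense strand in 14 members (23.33%) and 4.49% of genes, and on the other strand in 1 member against 4.04%. CGGAAG, the core letters read by ETS family factors, was present on the sense strand in 14 members against 5.18% of genes and on the other strand in 7 members (11.67%) against 4.83%. TATAAA occurred in 3 members (5%) against 3.72% on the sense strand and in 0 against 1.76% on the other. These are matches of letters in a fixed window, not sites of binding.

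The members sit on 19 chromosomes, with 14 on chromosome 7 and 4 on the X chromosome (Rpl10, Rpl36a, Rpl39 and Rps4x), and Rps27 spans chr3:90212667-90213648, Rps9 chr7:3703954-3706897, Rpl36a chrX:134585654-134588062 and Rps2 chr17:24718121-24721927. Ribosomal protein genes have many processed pseudogenes, and reads can be split between a gene and a near-identical copy. At 95% identity or more over at least 80% of the coding sequence, Rpl21 had 56 such copies in GENCODE vM21, Rpl7a 31, Rpl29 26, Rps2 23, Rpl17 22 and Rps12 21, while Rpl8, Rplp2 and Rps3 had 0. The sources used here do not say how the authors' counting treated such reads, so the levels of members with many copies are uncertain. Over the 76 core members the number of copies had a Pearson correlation of -0.12 with the log2 mean level, as a description.

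The core members were among the most abundant messages of the lymphoid cells and much less so in granulocytes. They made up 17.1% of the FPKM sum in control and 13.9% in CKO-labelled cycling thymocytes, 14.5% and 13% in quiescent thymocytes, 21.1% and 21.6% in large pre-B cells and 16.6% and 16.98% in small pre-B cells, but 3.92% and 3.02% in granulocytes. Of the 100 highest genes of a library, 53 to 66 were core members in the lymphoid libraries and 3 in each granulocyte library. Shares depend on what else is abundant, and the granulocyte FPKM sums were 830006 and 1074258 against 360394 to 431868 in the lymphoid libraries. Without the 50 highest other genes, the core share was 5.79% and 5.92% in granulocytes and 15.3% to 25.2% in the lymphoid libraries. In such bulk samples, fewer cells of a type and less RNA per cell cannot be told apart.

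The core members had a median of 885 and 727 FPKM among cycling thymocytes, 751 and 658 among quiescent ones, 1056 and 1174 among large pre-B cells, 824 and 785 among small ones and 408 and 395 in granulocytes. Both large pre-B libraries lay above every other library for 73 of the 76 core members, and both granulocyte libraries lay below every other library for 69. The order of the populations was thus shared by most members, as the plot of levels by library shows. The ratio of the highest to the lowest library had a median of 3.16 over the core members and ran from 1.52 for Rpl9, a protein of the large subunit, to 8.20 for Rpl36a.

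**Figure D1:**
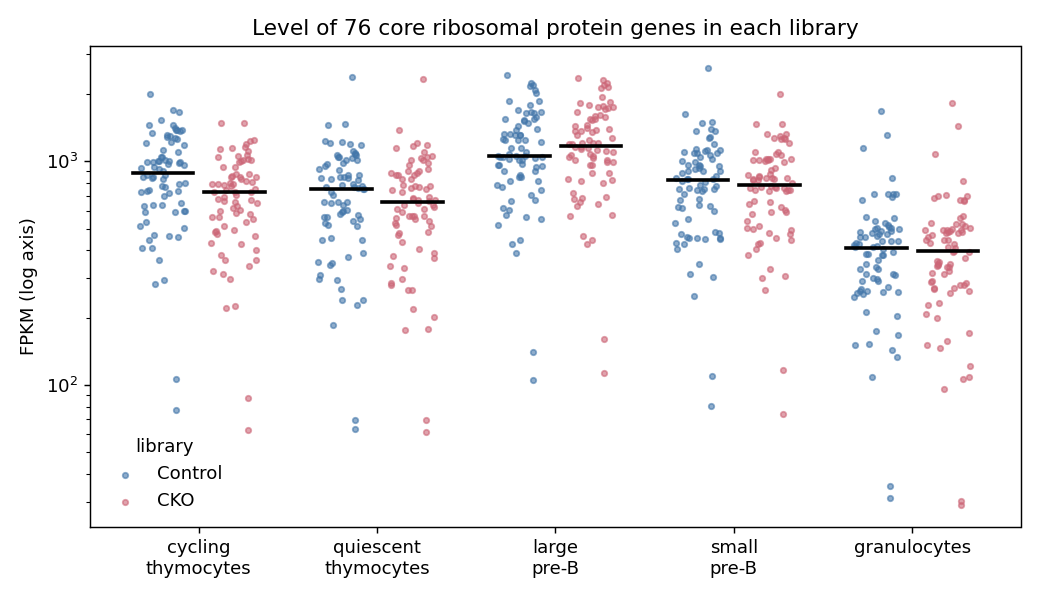
Level in FPKM (log axis) of each of the 76 core members in the 10 libraries, 1 point per gene, with the median of a library as a black bar. The medians run from 395 FPKM in CKO-labelled granulocytes to 1174 FPKM in CKO-labelled large pre-B cells, and the 2 points under the rest in each library are Rps15a and Rpl22.

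Levels differed widely between members of the same particle. The highest mean levels over the 10 libraries were those of Rpl41 (1226 FPKM), Rpl39 (1223 FPKM) and Rpl23a (1200 FPKM) in the large subunit, of Rps27 (1953 FPKM), Rps29 (1641 FPKM) and Rps9 (1438 FPKM) in the small subunit and of Rplp2 (1296 FPKM) in the P-stalk, ahead of Rplp1 (1045 FPKM) and Rplp0 (982 FPKM). Rps15a had the lowest core level in all libraries except CKO-labelled granulocytes, at 77.3 FPKM in control cycling thymocytes, and Rpl22, a protein with roles outside the ribosome in T cell development, was the lowest in CKO-labelled granulocytes at 29.1 FPKM. The summed FPKM of the 40S members was 0.820 to 0.877 times that of the 60S and P-stalk members in the lymphoid libraries and 0.965 and 0.973 times in the granulocyte libraries. Coding length had a Pearson correlation of -0.10 with the log2 mean level over the 76 members. FPKM is scaled by transcript length, for which no correlation was computed. The GENCODE vM21 transcript taken for Rps15a was 5179 bases long with a coding length of 390 bases. The part of transcript models in its low level was not tested.

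Every paralog was far lower than its main copy, and Rps27l was the most abundant of them. Rpl10l, a testis paralog of Rpl10, was listed at 0 in all 10 libraries, where Rpl10 was 443 to 1349 FPKM. Rpl39l ranged from 0.14 to 2.05 FPKM beside Rpl39 at 494 to 2201 FPKM, and Rpl3l, the muscle paralog of Rpl3, from 0.72 to 4.26 FPKM beside Rpl3 at 157 to 960 FPKM. Rps27l, a p53 target, ranged from 55.2 FPKM in CKO-labelled granulocytes to 171 FPKM in CKO-labelled large pre-B cells, beside Rps27 at 1308 to 2616 FPKM.

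Granulocytes were compared with the 4 lymphoid populations to ask how far the set differs between lineages. With limma across all genes, 72 of the 78 members tested fell in granulocytes and 2 rose (Benjamini-Hochberg adjusted p under 0.05), against 39.5% and 41.3% of the 11715 genes tested, and the median over members was -1.12 on the log2(FPKM + 1) scale (median of all genes -0.01). The falls covered 40 of 42 members of the 60S subunit, 28 of 31 of the 40S subunit, all 3 P-stalk members and Rps27l. These p-values measure the spread between the populations' genotype pairs, not between animals. Under rescaling by median ratios and by the FPKM sum without ribosomal protein genes and the 50 highest genes, the median of all genes moved to -0.21 and -0.72 and the members' median to -1.35 and -2.05.

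Rpl12, a large subunit protein at the base of the P-stalk, had FPKM values of 963 and 749 among cycling thymocytes, 772 and 637 among quiescent ones, 1224 and 1265 among large pre-B cells, 950 and 746 among small ones and 202 and 171 in granulocytes. The granulocyte libraries lay well under every lymphoid library. The gene fell by 2.25 ± 0.10 (SE) on the log2 scale in granulocytes (limma, adjusted p = 1.05e-06), the lowest value of the set. Rpl10a fell by 2.14 ± 0.11 (limma adjusted p = 2.71e-06) and Rps20 by 1.71 ± 0.11 (limma adjusted p = 8.19e-06). Rpl22 fell by 1.66 ± 0.11 (limma adjusted p = 7.4e-06). In all, 46 of the 76 core members were lower by at least 1 log2 unit, a size for which all genes were not counted.

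A few members did not follow the rest. Rps9, a 40S protein, had FPKM values of 1286 and 1056 among cycling thymocytes, 1465 and 1206 among quiescent ones, 1521 and 1600 among large pre-B cells, 1477 and 1266 among small ones and 1674 and 1828 in granulocytes. Both granulocyte libraries were above all others for this gene, and for no other core member was a granulocyte library the highest. Rps9 rose by 0.38 ± 0.11 (limma adjusted p = 0.0172) as deposited, but this became 0.14 (limma adjusted p = 0.279) with median ratios and a fall of 0.55 (limma adjusted p = 0.00354) with the sum scaling, so its direction depends on the scaling. Rps27a, a fusion of ubiquitin with a 40S protein, had FPKM values of 735 and 581 among cycling thymocytes, 514 and 485 among quiescent ones, 903 and 988 among large pre-B cells, 598 and 605 among small ones and 842 and 817 in granulocytes. The granulocyte values lay between those of large pre-B cells and cycling thymocytes, and it rose by 0.34 ± 0.10 as deposited (limma adjusted p = 0.016), stood at 0.10 with median ratios (limma adjusted p = 0.401) and fell by 0.59 with the sum scaling (limma adjusted p = 0.00153). With no filter on low values the rise of Rps9 did not pass (limma adjusted p = 0.0771). Rpl37, Rpl9 and Rps25 did not pass the test, with log2 differences of 0.04 ± 0.11, -0.18 ± 0.09 and -0.17 ± 0.10. Rps12, Rpl37, Rps25 and Rps27a had their lowest level in CKO-labelled quiescent thymocytes instead of granulocytes.

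**Figure D2:**
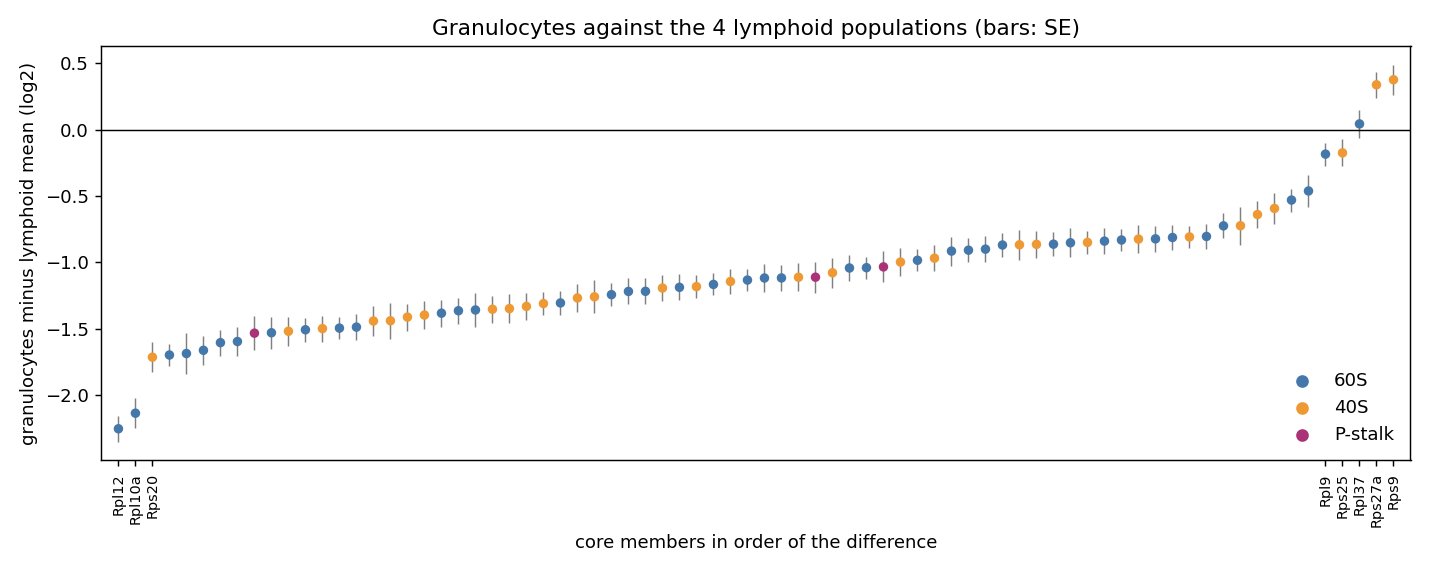
Difference between granulocytes and the mean of the 4 lymphoid populations for each core member (log2 scale, limma coefficient with its SE as the bar), ordered by value and coloured by subunit, with 8 members named. Rpl12 lies lowest at -2.25, and Rps27a (0.34) and Rps9 (0.38) stand above 0 at the right on the deposited scaling.

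Granulocytes against pre-B cells gave 74 falls and 0 rises among the 78 members (36.7% of all genes fell and 41% rose), with a median of -1.29, and Rpl12 (-2.46), Rpl10a (-2.33) and Rpl36a (-2.21) were lowest. Without adjustment, 75 members had p under 0.05, 1 more than were called, and so did 9271 of the 11715 genes. Thymocytes against pre-B cells gave 58 falls and 0 rises (36.5% and 33.2% of all genes), with a median of -0.40. An unadjusted p under 0.05 was found for 59 members and for 8445 of the 11715 genes. Rpl36a fell by 1.04 ± 0.13, Rps19, mutated in Diamond-Blackfan anaemia, by 0.95 ± 0.10 and Rps12 by 0.89 ± 0.13 in thymocytes relative to pre-B cells (limma adjusted p = 0.000456, 0.000193 and 0.000724). Rpl11, Rpl7a and Rps14 stood at 0.01 ± 0.09, -0.02 ± 0.09 and 0.12 ± 0.10 and did not pass. Rps19 had FPKM values of 630 and 483 among cycling thymocytes, 445 and 375 among quiescent ones, 1049 and 1189 among large pre-B cells, 751 and 757 among small ones and 258 and 228 in granulocytes, so its 4 pre-B libraries lay above all 4 thymocyte libraries.

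Quiescent cells were then compared with cycling cells of the same lineage. In pre-B cells, 64 of 78 members fell from the large to the small stage and 1 rose (21.8% of the 11126 genes tested fell and 25.6% rose), with a median of -0.52 (all genes 0.04). The falls held 33 of 42 members of the 60S subunit, all 3 of the P-stalk, 27 of 31 of the 40S subunit and Rps27l. In thymocytes, 25 members fell and 1 rose (19.7% and 25.2% of all genes), with a median of -0.21 (all genes 0.06), so the share of members that fell was 25 of 78 against 19.7% overall. Those 25 were 11 of the 60S subunit, 1 of the P-stalk, 12 of the 40S subunit and Rps27l. All 25 also fell in pre-B cells, where 64 of 78 members fell and the 25 were 39.1% of the falls. The same overlap was not counted over all genes, so it is given as a description only. The tests had 2 residual degrees of freedom, and a single pair weighed heavily: without the control pre-B pair 0 members fell in pre-B cells and without the CKO pair 5, and without the control thymocyte pair 0 fell in thymocytes, with 7 when either pre-B pair was left out. With no filter on low values, 26 members fell in pre-B cells and 4 in thymocytes. As these counts of 0 imply, the falls named below did not pass without the control pair of their own lineage.

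In the single pairs, small pre-B libraries were lower than large ones for 75 of 76 core members in the controls (median -0.44) and for 76 in the CKO-labelled mice (median -0.59). Quiescent thymocytes were lower for 65 members in the controls (median -0.32) and for 50 in the CKO-labelled mice (median -0.11). The corresponding shares of all genes considered were 43.8% and 50.9% in pre-B cells and 42.5% and 42.6% in thymocytes. In 4 of 4 pairs, 50 of the 76 core members were lower in the quiescent library, a count that was not made over all genes. The quiescent CKO-labelled libraries are the ones with the higher proliferation marker sums given above, and the part of that in these medians was not tested.

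Rpsa, a 40S protein first known as a laminin receptor, had FPKM values of 727 and 561 among cycling thymocytes, 296 and 285 among quiescent ones, 961 and 1048 among large pre-B cells, 429 and 505 among small ones and 246 and 208 in granulocytes. The quiescent library was lower in each pair, and the quiescent thymocytes came close to granulocytes. It fell by 1.13 ± 0.12 in thymocytes (limma adjusted p = 0.00625) and by 1.11 ± 0.12 in pre-B cells (limma adjusted p = 0.004).

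Rpl36a, a small zinc-binding 60S protein encoded on the X chromosome, had FPKM values of 598 and 363 among cycling thymocytes, 239 and 200 among quiescent ones, 947 and 993 among large pre-B cells, 451 and 444 among small ones and 166 and 121 in granulocytes. The states did not overlap within a lineage. It fell by 1.09 ± 0.14 in thymocytes (limma adjusted p = 0.00688) and by 1.11 ± 0.14 in pre-B cells (limma adjusted p = 0.00475). Rpl3, a core protein near the peptidyl transferase centre, fell by 1.07 ± 0.12 and 0.96 ± 0.12, and Rpl14 by 0.97 ± 0.09 and 1.16 ± 0.09, in the same order (limma adjusted p = 0.0066, 0.00498, 0.00617 and 0.00254).

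Rps2, a 40S protein at the messenger RNA entry site with 23 near-identical pseudogenes, showed the largest fall of the set in pre-B cells. It had FPKM values of 978 and 731 among cycling thymocytes, 572 and 543 among quiescent ones, 1578 and 1738 among large pre-B cells, 482 and 590 among small ones and 314 and 279 in granulocytes. The large pre-B libraries lay far above the small ones, while the thymocyte states lay closer together. It fell by 1.63 ± 0.12 in pre-B cells (limma adjusted p = 0.00245) and by 0.60 ± 0.12 in thymocytes (limma adjusted p = 0.0152).

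Rplp1, an acidic stalk protein, had FPKM values of 1332 and 946 among cycling thymocytes, 1204 and 837 among quiescent ones, 1865 and 1812 among large pre-B cells, 833 and 822 among small ones and 457 and 341 in granulocytes. Its pre-B states were far apart, whereas the thymocyte libraries grouped by genotype more than by state. It fell by 1.15 ± 0.10 in pre-B cells (limma adjusted p = 0.00256) and stood at -0.16 ± 0.10 in thymocytes, which did not pass. Rplp0, the stalk's anchor, and Rplp2 fell by 0.96 ± 0.11 and 0.81 ± 0.12 in pre-B cells (limma adjusted p = 0.00424 and 0.00637). Rps12 fell by 1.09 ± 0.12 in pre-B cells (limma adjusted p = 0.00386) and by 0.55 ± 0.12 in thymocytes (limma adjusted p = 0.0157).

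Rps27, a zinc-finger 40S protein and the most abundant member, went the other way in thymocytes. It had FPKM values of 1687 and 1489 among cycling thymocytes, 2377 and 2335 among quiescent ones, 2171 and 2124 among large pre-B cells, 2616 and 1990 among small ones and 1308 and 1435 in granulocytes. Both quiescent thymocyte libraries were above both cycling ones, while the small pre-B libraries lay on either side of the large ones. It rose by 0.57 ± 0.13 in thymocytes (limma adjusted p = 0.0202), which did not pass without any 1 of the 4 lineage-by-genotype pairs (adjusted p = 0.0546 to 0.116), and stood at 0.09 ± 0.13 in pre-B cells (-0.094 without the control pair and 0.27 without the CKO pair). Its paralog Rps27l, at 109 and 100 FPKM among cycling and 58.0 and 72.9 FPKM among quiescent thymocytes and at 168 and 171 FPKM in large and 71.6 and 89.9 FPKM in small pre-B cells, fell by 0.68 ± 0.15 and 1.07 ± 0.15 (limma adjusted p = 0.0173 and 0.00578). The other rise, that of Rpl3l in pre-B cells by 0.75 ± 0.15 (limma adjusted p = 0.0127), concerns a gene at 0.72 to 4.26 FPKM over the libraries. That call was lost with additive terms (limma adjusted p = 0.0575) and without either pre-B pair (0.106 and 0.0935), and the gene was not tested with a minimum of 5 FPKM. The 13 core members that did not pass in pre-B cells include Rpl13a, Rpl17, Rps7 and Rps9 beside Rps27.

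**Figure D3:**
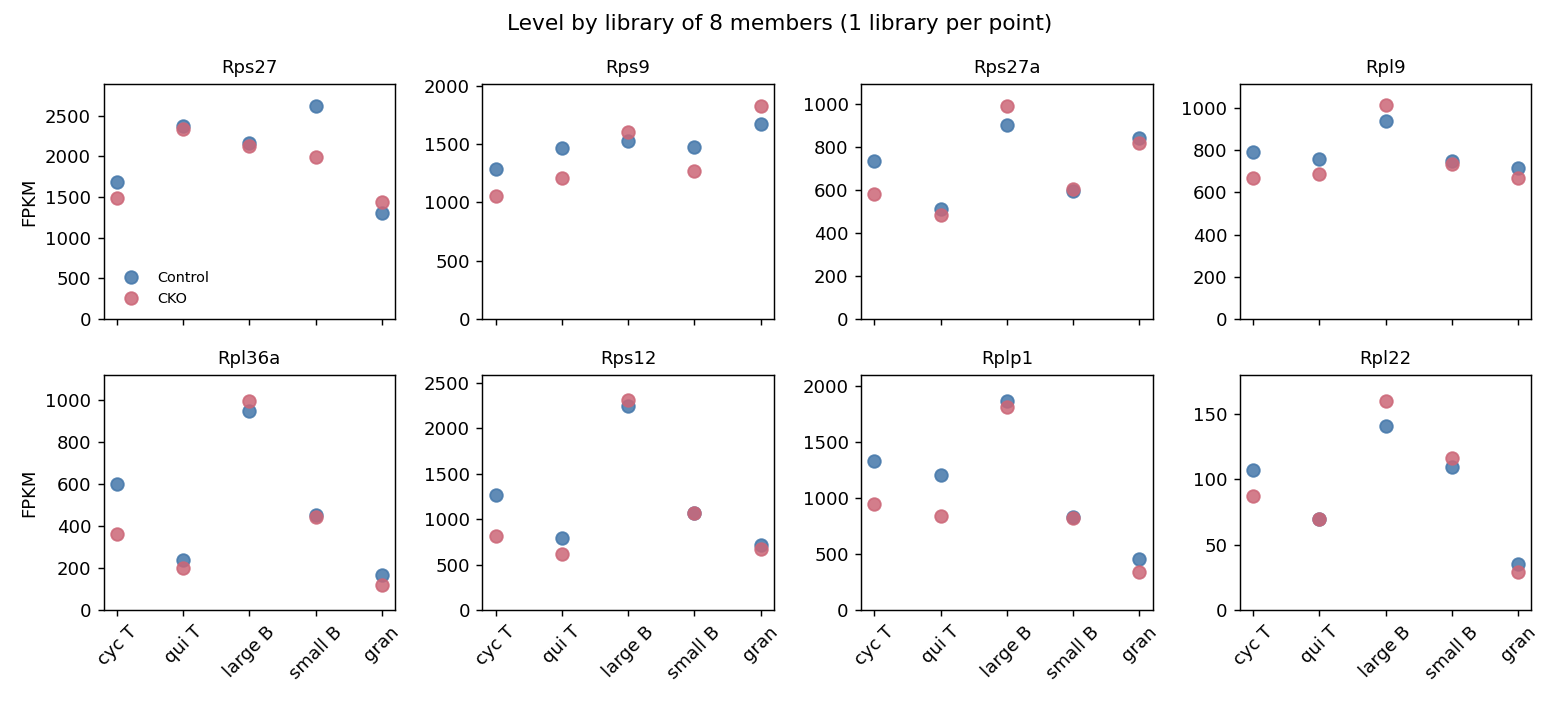
FPKM of 8 members in the 5 populations (cyc T and qui T, cycling and quiescent thymocytes; large B and small B, large and small pre-B cells; gran, granulocytes), with 1 point per library, control in blue and CKO-labelled in red. Rps9 is highest in granulocytes (1674 and 1828 FPKM), whereas Rpl36a is lowest there (166 and 121 FPKM) and reaches 993 FPKM in large pre-B cells.

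The difference of the state effects between lineages was tested in the same fit. It passed for 4 members, all with a larger fall in pre-B cells than in thymocytes, against 3.62% of all genes with a difference in that direction and 3.22% in the other. Among them were Rps2 (difference 1.03 ± 0.18, limma adjusted p = 0.0392), Rplp1 (0.99 ± 0.14, limma adjusted p = 0.0279) and Rpl27 (0.81 ± 0.15, limma adjusted p = 0.0433). Rpl27, a large subunit protein, was 445 and 382 FPKM among cycling and 520 and 478 FPKM among quiescent thymocytes, and 573 and 628 FPKM in large and 424 and 405 FPKM in small pre-B cells. Its quiescent library was higher in both thymocyte pairs and lower in both pre-B pairs. The count was 0 when any 1 of the lineage-by-genotype pairs was left out. Over members the difference had a median of 0.31 and was above 0 for 69 of 78, and over all genes it had a median of 0.01 and was above 0 for 5665 of 11126.

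Across the 76 core members, the state effect in thymocytes and that in pre-B cells had a Pearson correlation of 0.69 (Spearman 0.64). They share no library but the same pools of mice, gene models and base composition, and this is a description of members that are not independent replicates.

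**Figure D4:**
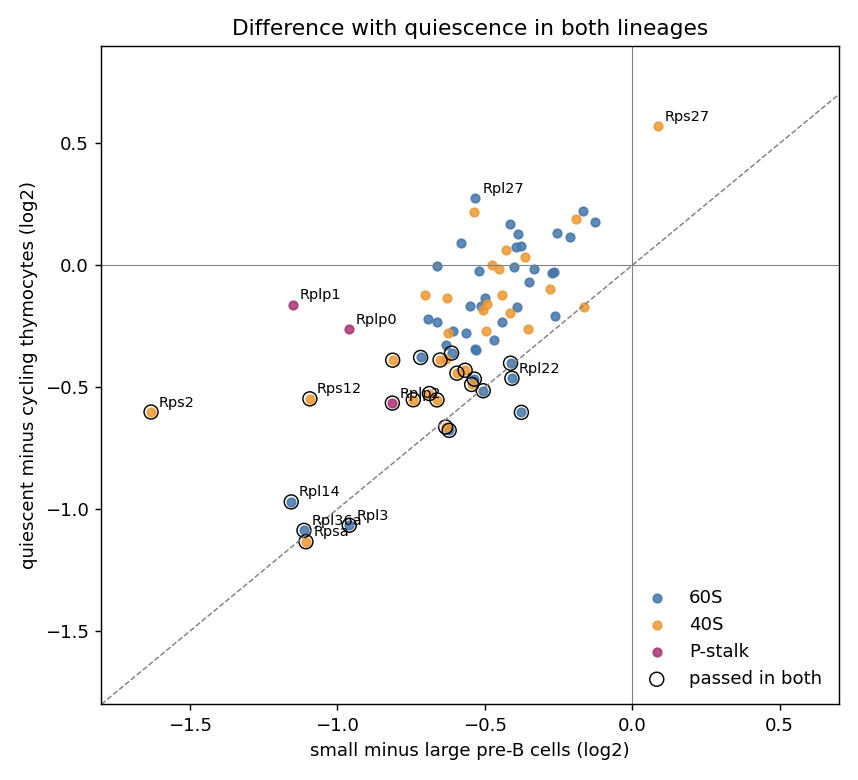
Difference between quiescent and cycling thymocytes (vertical axis) against that between small and large pre-B cells (horizontal axis) for the 76 core members, log2 scale, coloured by subunit. Ringed genes passed the test in both lineages (24 core members), the dashed line marks equal differences, and most genes lie above it. Rps2 is farthest to the left (-1.63) and Rps27 is highest (0.57).

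CKO-labelled and control libraries were compared within each population, with 1 library a group and therefore no test. In cycling thymocytes all 76 core members were lower in the CKO-labelled library, where 47.6% of the 7755 genes considered were lower and 52.4% higher. At least 20% lower were 35 core members, against 7.85% of genes, and 0 were at least 25% higher, against 6.95%. The median log2 ratio was -0.32, against -0.00 for 532 other genes above 100 FPKM in both libraries. By subunit the medians were -0.30 for the 60S, -0.33 for the 40S and -0.43 for the P-stalk. The lowest ratios were those of Rpl36a (-0.72), Rps12 (-0.64), Rplp1 (-0.49) and Rps4x (-0.47), and the members nearest to 0 were Rps3 (-0.12), Rpl13a (-0.12), Rps27l (-0.13) and Rpl41 (-0.15). Rps12, a 40S protein, had FPKM values of 1271 and 814 among cycling thymocytes, 789 and 613 among quiescent ones, 2240 and 2312 among large pre-B cells, 1068 and 1064 among small ones and 716 and 670 in granulocytes. The genotypes stood apart in the thymocytes and close together in the pre-B cells.

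In quiescent thymocytes 68 core members were lower and 8 higher (51.2% and 48.8% of genes), with a median of -0.12, and 3 were at least 20% lower (17.1% of genes): Rplp1 (-0.53), Rps12 (-0.36) and Rpl14 (-0.36). Of the core members 0 were at least 25% higher (18.1% of genes). Rpl36 followed at -0.32, and Rps27l (0.32), Rpl10 (0.20) and Rpl4 (0.14) were among the highest. In large pre-B cells 69 were higher and 7 lower (57.3% of genes higher, 42.7% lower), with a median of 0.10. Rps3 (0.19) and Rpl22 (0.18) were among the highest, Rpl37a was lowest at -0.09, and Rplp1 and Rps29 were both at -0.04. In that pair 0 members were at least 20% lower or 25% higher (7.3% of genes lower and 6.78% higher by that much).

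Small pre-B cells had 46 core members lower and 30 higher (63.5% and 36.5% of genes) and a median of -0.03, which turned to 0.047 with median ratios and 0.056 with the sum scaling. The 2 core members at least 20% lower (20.2% of genes) were Rps27 (-0.39) and Rpl12 (-0.35), and 0 were at least 25% higher (14.6%). Rps3a (-0.23) and Rps9 (-0.22) came next, while Rps27l (0.32), Rps2 (0.29), Rpsa (0.24) and Rplp0 (0.18) were highest. In granulocytes 43 were lower and 33 higher (52% and 48% of genes), with a median of -0.02 that was 0.013 with the sum scaling. At least 20% lower were 3 core members (13% of genes), and 0 were at least 25% higher (5.66%). Rpl36a (-0.46), Rpl14 (-0.43), Rplp1 (-0.42) and Rpl10a (-0.29) were lowest and Rpl35a (0.31), Rps14 (0.23), Rps25 (0.22) and Rpl11 (0.20) highest. Rpl7, Rplp1 and Rps29 were the 3 core members lower in each of the 5 populations, and were named after their values were seen. The share of all genes lower in each of the 5 was not counted, so no result about these 3 is drawn.

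**Figure D5:**
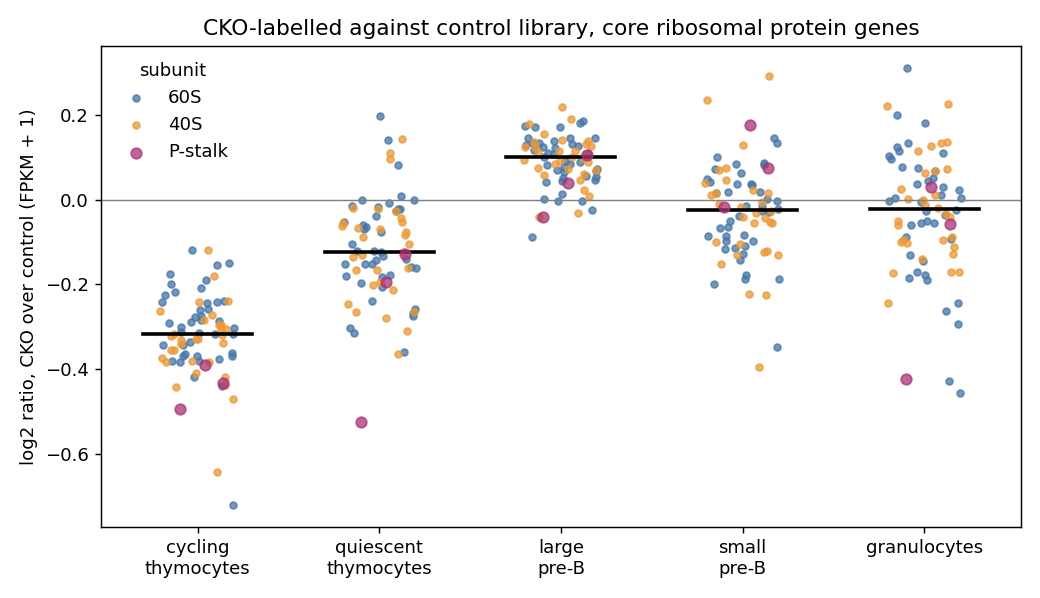
Log2 ratio of the CKO-labelled over the control library for each core member in the 5 populations (1 point per gene, coloured by subunit, black bar at the median). The medians are -0.32, -0.12, 0.10, -0.03 and -0.02 from left to right, and in cycling thymocytes all 76 points lie below 0.

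Over populations, the genotype effect passed the test for 0 members. With limma over the 4 lymphoid populations, 0 members rose and 0 fell (0.027% and 0.00899% of 11126 genes), and the median was -0.10. Of 78 estimates, 72 were below 0 (5746 of 11126 over all genes). An unadjusted p under 0.05 was found for 2 members, against 1867 of the 11126 genes. Without the cycling thymocyte pair the median was -0.02 and 46 of 78 were below 0. Over all 5 populations 0 members passed in either direction (0.0341% of genes rose and 0.0171% fell). Of 78 members, 68 were below 0 (6247 of 11715 genes) and 5 had an unadjusted p under 0.05 (1970 of 11715 genes). In a fit with a genotype effect per lineage, added after the data were seen, all 76 core members were below 0 in thymocytes with a median of -0.21, but 0 passed (0.0629% of genes rose and 0.0539% fell). The lowest limma adjusted p was that of Rplp1, at -0.51 ± 0.10 (adjusted p = 0.118), followed by Rps12 at -0.50 ± 0.11 (limma adjusted p = 0.152). In thymocytes 15 of the 76 core members had an unadjusted p under 0.05, against 1853 of 11126 genes. In pre-B cells the median was 0.03 and 0 members passed (0.611% of genes rose and 0.683% fell). There 1 of 78 members had an unadjusted p under 0.05, against 1902 of 11126 genes. The difference of the genotype effects between lineages was below 0 for 75 of 76 core members and passed for 0 (0.00899% of genes above and 0% below). An unadjusted p under 0.05 was reached by 12 of 78 members and by 1597 of 11126 genes.

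The 4 X-linked members were -0.31 (Rpl10), -0.72 (Rpl36a), -0.38 (Rpl39) and -0.47 (Rps4x) in cycling thymocytes, but 0.04, 0.07, -0.00 and 0.07 in large pre-B cells from the same mice, on the log2 ratio scale. In the same order they were 0.20, -0.26, -0.02 and -0.27 in quiescent thymocytes, -0.13, -0.02, 0.08 and -0.13 in small pre-B cells and -0.18, -0.46, -0.04 and -0.17 in granulocytes. Each of the 4 was thus lowest in cycling thymocytes. The median of the 76 core members was also lowest there, at -0.32 against -0.12, 0.10, -0.03 and -0.02 in the other populations. How many members on other chromosomes were lowest there was not counted. Members with the larger falls in small pre-B cells tended to have the lower CKO-labelled ratio in cycling thymocytes, with a Pearson correlation of 0.62 over the 76 core members (Spearman 0.57), while the correlation of those falls was 0.53 with the ratio in granulocytes and 0.28 with that in quiescent thymocytes. The ratio in cycling thymocytes had a Pearson correlation of 0.53 with that in granulocytes, 0.47 with that in quiescent thymocytes, 0.21 with that in large pre-B cells and -0.04 with that in small pre-B cells. These pairs share no library, though they share pools of mice, and the values are given as a description.

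Other genes of the translation machinery were read from gene lists. Among 18 translation genes other than ribosomal proteins with TOP messages, 6 fell and 2 rose with quiescence in thymocytes (median -0.09; 19.7% of all genes fell and 25.2% rose). In pre-B cells 8 fell and 1 rose (median -0.32; 21.8% and 25.6% of all genes), led by Npm1, the nucleolar chaperone nucleophosmin, which fell by 1.47 ± 0.12 (limma adjusted p = 0.00255). Eif4a2, a helicase of the initiation complex, rose in both, by 0.48 ± 0.12 and 0.68 ± 0.12 (limma adjusted p = 0.0219 and 0.00894). Among 20 other translation factors, 14 fell and 0 rose in pre-B cells (median -0.48), and 7 fell and 1 rose in thymocytes (median -0.13). Of 6 small nucleolar RNA host genes, 5 fell and 0 rose in pre-B cells (median -0.59), and 0 fell and 1 rose in thymocytes (median -0.01). The fall in pre-B cells was thus not limited to the list with TOP messages. In granulocytes against lymphoid cells 17 of the 18 genes of that list fell (39.5% of all genes), with Npm1 lowest at -2.35 ± 0.11 (limma adjusted p = 1.77e-06). In cycling thymocytes 17 of 18 were lower in the CKO-labelled library (47.6% of all genes), with a median of -0.15. In quiescent thymocytes 13 of these 18 were higher in that library (48.8% of all genes), with a median of 0.06. Other lists went less that way in cycling thymocytes. Lower in the CKO-labelled library were 9 of 20 other translation factors (median 0.04) and 2 of 6 small nucleolar RNA host genes (median 0.03). Of 74 mitochondrial ribosomal protein genes tested, 45 fell and 2 rose in quiescent thymocytes (median -0.50), against the 19.7% and 25.2% of all genes. In small pre-B cells 42 fell and 0 rose (median -0.43), against 21.8% and 25.6%, where the median of the cytosolic members was -0.52. In cycling thymocytes 62 of 72 mitochondrial members were lower in the CKO-labelled library (median -0.11; 47.6% of all genes were lower).

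Myc, a transcription factor that drives ribosome production, stood at 33.6 and 45.4 FPKM among large pre-B cells and 4.81 and 16.9 FPKM in small pre-B cells, and it fell by 1.98 ± 0.29 on the log2 scale (limma adjusted p = 0.00659). In thymocytes it was 9.32 and 11.4 FPKM in the cycling and 4.20 and 7.26 FPKM in the quiescent libraries, a difference of -0.79 ± 0.29 that did not pass (limma adjusted p = 0.0762). Over the 10 libraries, the genes outside the set whose log2 level was most like the core median, among 4426 genes with a mean of at least 20 FPKM, were Nop10 (Pearson r 0.99), Rpl36al (0.99), Gnb2l1 (0.98), Lsm7 (0.98) and Eef1a1 (0.98). Within the set, Rps9 was the least like that median (-0.32), followed by Rps27a (0.08), Rpl37 (0.39), Rps25 (0.59) and Rps27 (0.64), and Rpl5 was the most like it (0.99). These correlations are descriptions over libraries that fall into clusters by population, and the granulocyte libraries weigh in all of them.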

How the data were processed

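RNA was sequenced from 10 libraries, 1 per population and genotype, each from a pool of 2 mice. Cells were stained for surface markers and with nucleic acid dyes, sorted, and total RNA was isolated on RNeasy columns, per the labels' protocols. The submitters' processing notes name TopHat2 2.0.8b, Cuffdiff 2.1.1 and mm10 but not their roles. The deposited values were read as FPKM, inferred from the tools and the values. Strand setting, gene models and depth are not given in the sources used here, so the precision of single values is unknown.

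Each table held 23179 rows. Dropping 201 exact repeats and keeping the highest-mean entry of each of 47 repeated symbols left 22923 symbols. Values were analysed as log2(FPKM + 1), which understates changes of low genes. Within a population, ratios used genes reaching 5 FPKM in either library. They carry no test, as 1 library a group gives no spread. Tests used limma-trend (R 4.3.3, limma 3.58.1) where 2 fitted libraries or more reached 1 FPKM, adjusted over all genes by Benjamini-Hochberg at 0.05. Genotype was fitted with population as a block (3 or 4 residual degrees of freedom, 2 with an effect per lineage), state with a block for lineage and genotype (2), and population with genotype as a block (4). All libraries of a genotype come from 1 pool, so the spread between animals does not enter the p-values, which may reflect technical spread. Promoters are from RefSeq (GRCm38.p6). Near-identical copies were found with blastn 2.17.0 of coding sequences against 13399 GENCODE vM21 pseudogene transcripts. Each fit was tested on simulated data.

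The members and gene lists were chosen with earlier results of these data known. Members named are, per population, the 4 highest and 4 lowest ratios, per test the 3 largest rises and falls, per role the 3 highest means, paralogs with main copies, Rpl22 and Rpsa, plus those that departed from the rest, named after their values were seen. Values of some single genes that the rule would name are not reported here. Alternatives were pseudocounts of 0.1 and 5, 2 rescalings, summed rows, other filters and blocks, and leaving out libraries. Tables and plots were made with matplotlib 3.10.9, numpy 2.4.6 and pandas 2.3.3 under Python 3.11.15.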

Additional observations from a re-analysis of the deposited data

Results flagged for a closer look

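Rps2, Rplp1 and Rpl27 differed between lineages in how the level changed from cycling to quiescent cells, by a test of that difference in limma. They were among 4 of 78 members that passed, against 3.62% of all genes in that direction, so the set stood near the background. The fall from large to small pre-B cells exceeded the difference between quiescent and cycling thymocytes by 1.03 log2 units for Rps2, by 0.99 for Rplp1 and by 0.81 for Rpl27, with adjusted p of 0.0279 to 0.0433. For Rps2 and Rplp1 all 4 pairs were lower in the quiescent library, and for Rpl27 the pairs of the lineages moved in opposite directions. For all 3 the call was lost without any 1 pair, with no filter on low values and with lineage and genotype as additive terms. That of Rps2 was also lost with a pseudocount of 0.1 and under both rescalings, and that of Rpl27 with a pseudocount of 0.1 and under the sum scaling. No group held enough libraries for a search for libraries that stand apart.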

How the results depend on the processing

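Counts and medians of members were recomputed with other pseudocounts, scalings, filters and blocks and without each library pair. The labels give no replicate numbers, so libraries were paired only by the blocks of the fits (population, or lineage and genotype). In small pre-B cells the median CKO ratio became 0.047 and 0.056 under the median-ratio and the sum scaling, 25 core members were lower under either, and 0 were at least 20% lower. The sum scaling also gave 0.013 as the median in granulocytes and 6 core members at least 20% lower in quiescent thymocytes. With quiescence in thymocytes, 4 members fell and 0 rose with no filter, and 0 to 21 fell and 0 rose without 1 pair. In pre-B cells 26 fell with no filter and 0 to 63 without 1 pair. Rises there were 0 with a minimum of 5 FPKM and with additive terms, and 0 to 1 without 1 pair. Rps27 in pre-B cells became -0.094 without the control pre-B pair and 0.27 without the CKO pair. Members with a difference between lineages numbered 1 with a pseudocount of 0.1, 2 with median ratios, 1 with the sum scaling, 0 with no filter, 0 with additive terms and 0 without any 1 pair. Rises in granulocytes against lymphoid cells were 0 under both scalings and 1 with no filter, and Rps9 became -0.55 and Rps27a -0.59 with the sum scaling. The median there became -1.35 and -2.05, and against pre-B cells -1.57 and -2.25, under the median-ratio and the sum scaling. Leaving out a genotype in the comparisons between populations left 0 residual degrees of freedom and gave values without a test. The depth of the libraries is unknown, so small differences between 2 libraries, and the levels of Rpl3l and Rpl39l, have no known counting error. The cause of these shifts was not tested.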
